A study of Mus musculus with 3 samples.

Results

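The 7 genes Snhg1, Snhg3, Snhg6, Snhg8, Snhg9, Snhg12 and Gas5 are host genes of small nucleolar RNAs (snoRNAs), and they are 7 of the 32285 genes counted in these libraries. They were chosen by symbol, with earlier results of these data known, and the choice used 1 measured pattern: Snhg6 and Snhg9 had been seen higher in the MLL-ENL library than in the Skida1-deleted library in every lineage. The values of Snhg6 and Snhg9 in that comparison are therefore described here and nothing is supported with them.

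A snoRNA host gene is transcribed like a messenger RNA, but its introns carry snoRNAs, which are trimmed out of the spliced introns and stay in the nucleolus. Box C/D snoRNAs guide ribose methylation and box H/ACA snoRNAs guide pseudouridylation of ribosomal RNA, so the hosts belong to the machinery of ribosome production, on which rapidly dividing blood progenitors depend. The spliced host RNA mostly encodes no protein. Many hosts begin with a terminal oligopyrimidine (TOP) tract, which ties their use to growth signals as for ribosomal protein messenger RNAs, and many are degraded by nonsense-mediated decay while ribosomes read them. Gas5 takes its name from growth arrest, in which its RNA accumulates.

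Single-cell RNA and antibody-tag sequencing (CITE-seq) was carried out on lineage-negative, Kit-positive progenitors sorted from mouse liver at postnatal day 0, with 1 library per group. The groups were MLL-ENL with Skida1 deleted (below, the Skida1-deleted library), MLL-ENL alone, and Control. MLL-ENL is a leukaemia fusion oncogene that joins the KMT2A gene to ENL, and Skida1 encodes a protein with a SKI/DACH domain. The strain, the driver of the fusion, the deleted part of Skida1 and the number of pooled animals are not stated by the labels. With 1 library per group, no test between groups exists: the group, the library and the animals in it cannot be told apart, intervals cover counting error alone, and no p-value is given.

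The Skida1-deleted, MLL-ENL and Control libraries held 10543, 11910 and 6091 barcodes with 207395090, 198773992 and 180656900 gene UMIs (unique molecular identifiers, each standing for 1 captured RNA molecule), and 9168, 10154 and 5510 cells were kept. Median depth was 17025.5, 14685.5 and 28501 UMIs per kept cell, and 21, 15 and 14 barcodes were shared by the 3 pairs of libraries. Levels are given as CPM, a gene's summed UMIs divided by all gene UMIs of the same cells and scaled to the same total in every library and lineage, which compares libraries for 1 gene and not genes with each other. The Skida1-deleted library stood apart in sex-linked RNA, with 2.13 CPM of Xist against 1038 in MLL-ENL and 644 in Control, and with 57.1 CPM of Ddx3y against 0 in both others. Ribosomal protein RNA made up 33.5, 32.8 and 28.2% of UMIs in the Skida1-deleted, MLL-ENL and Control libraries, and the 7 host genes made up 0.198, 0.193 and 0.131%. Skida1 itself had 2.01 CPM in Skida1-deleted, 15.5 CPM in MLL-ENL and 0.930 CPM in Control HSPC-like cells (38, 322 and 17 UMIs). Kit had at least 1 UMI in 87.1, 79.3 and 90.3% of kept cells of those libraries, and none of the 8 macrophage markers reached 5 CPM in any library. Hepatocyte markers summed to 15.3 CPM in Skida1-deleted, 9.55 CPM in MLL-ENL and 5.89 CPM in Control cells, and their part in the results was not tested.

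Clusters were named from marker genes, and 5 lineages held at least 100 cells in every library. In the order Skida1-deleted, MLL-ENL and Control, there were 1996, 1766 and 1117 HSPC-like cells (haematopoietic stem and progenitor cells), 630, 277 and 447 granulocyte-monocyte-like cells, and 1162, 259 and 379 megakaryocyte-like cells. The erythroid-like class held 4977, 7467 and 3333 cells and the basophil-mast-like class 272, 235 and 160. Clusters of low depth, whose median times 3 stayed below their library's, held 338 Skida1-deleted, 2621 MLL-ENL and 0 Control erythroid-like cells. In the same order of libraries they held 434, 0 and 0 HSPC-like cells and 0, 86 and 0 granulocyte-monocyte-like cells. Basophil-mast-like cells in them numbered 0, 22 and 19.

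The annotated starts of the hosts are shown because TOP genes begin with a run of pyrimidines, in some with a TATA-like box before it, and the members can be compared by eye. Each window runs from 45 bases before to 50 bases after the start of the annotated transcript on its own strand (RefSeq sequences, GRCm38.p6), and capitals mark the motif TATNNA. The TATNNA motif and the run of C and T below were chosen after the windows had been looked at. Of the members, 6 had an entry, and Gas5 had 2 starts, of which the second is printed; the first has neither the motif nor the run described below. Snhg6 is named without a window.
Snhg8, chr3:123508287-123508381, minus strand: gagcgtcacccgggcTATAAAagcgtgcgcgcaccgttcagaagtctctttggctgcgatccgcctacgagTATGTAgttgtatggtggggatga
Snhg12, chr4:132308633-132308727, plus strand: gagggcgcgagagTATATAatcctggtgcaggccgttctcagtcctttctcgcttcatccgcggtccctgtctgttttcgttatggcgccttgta
Gas5, chr1:161035121-161035215, plus strand: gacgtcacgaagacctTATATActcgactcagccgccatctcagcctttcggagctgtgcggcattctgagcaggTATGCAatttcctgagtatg
Snhg1, chr19:8723442-8723536, plus strand: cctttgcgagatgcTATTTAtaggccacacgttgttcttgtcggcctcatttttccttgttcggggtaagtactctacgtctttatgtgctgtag
Snhg3, chr4:132353637-132353731, minus strand: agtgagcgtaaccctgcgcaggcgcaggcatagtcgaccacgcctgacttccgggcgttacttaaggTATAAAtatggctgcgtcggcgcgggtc
Snhg9, chr17:24719916-24720010, minus strand: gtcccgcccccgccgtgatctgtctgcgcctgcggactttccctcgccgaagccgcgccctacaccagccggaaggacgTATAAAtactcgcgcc

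The first 4 of these windows carried TATNNA with its first base 29 to 32 bases before the start, whereas in Snhg3 and Snhg9 the motif lay after it. Over all promoter windows of the same length, 6.24% of 32851 held TATNNA with its first base 40 to 20 bases before the start on the transcript's strand, against 4 of the 7 member windows. Anywhere in the window the motif stood in 15.9% of all windows on that strand, and in 24.6% counting either strand. A run of at least 5 C or T over the start base stood in the windows of Snhg8 (7 bases), Snhg12 (9 bases) and Gas5 (6 bases), against 10.1% of all windows. Such a match describes letters and is no evidence of a bound factor.

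Each host differs in what it carries. Gas5 (ENSMUSG00000053332, chr1:161034601-161038539, plus strand) and Snhg1 (ENSMUSG00000108414, chr19:8723487-8726326, plus strand) each held 8 annotated snoRNAs, among them Snord47 in Gas5 and Snord22 in Snhg1. Snhg12 (ENSMUSG00000086290, chr4:132308678-132311024, plus strand) held Snora16a, Snora44, Snora61 and Snord99. Snhg3 (ENSMUSG00000085241, chr4:132351933-132353686, minus strand) held Snora73a and Snora73b, which belong to the H/ACA class and are best known for ribosomal RNA processing. Single snoRNAs lay in Snhg6 (Snord87, ENSMUSG00000098234, chr1:9942025-9944118), Snhg8 (Snora24, ENSMUSG00000104960, chr3:123507552-123508336, minus strand) and Snhg9 (Snora78, ENSMUSG00000090101, chr17:24719531-24719965, minus strand). The counted polyA RNA is the spliced host and not the snoRNA.

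Overlaps with other genes limit some counts. Snhg9 is 435 bases long and lies entirely inside the span of Rps2, a ribosomal protein gene on the opposite strand (chr17:24718121-24721927). Since it is not stated that the counting used strand, Snhg9 reads and reads of Rps2 cannot be told apart with certainty. Rps2 had 5109 CPM in Skida1-deleted, 5666 CPM in MLL-ENL and 8594 CPM in Control HSPC-like cells, and stood in the same order in the other 4 lineages. Snhg9 shared that order in granulocyte-monocyte-like cells (27.1, 48.2 and 54.2 CPM), and in the other 4 lineages MLL-ENL was highest. Its MLL-ENL over Control interval included 1 in granulocyte-monocyte-like (0.748 to 1.05), megakaryocyte-like (0.829 to 1.28) and basophil-mast-like cells (0.969 to 1.67). In those lineages the order of MLL-ENL and Control was not resolved beyond counting error. Snhg6 overlaps Mcmdc2 by 1582 bases, and Mcmdc2 stayed under 5 CPM in every library and lineage. Gas5 overlaps Zbtb37 by 264 bases.

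In MLL-ENL cells, Snhg6, Snhg3 and Snhg8 were higher than in Control cells in all 5 lineages, by 1.54 to 3.08-fold. Gas5 was higher in all 5 as well, by 1.13 to 1.85-fold. Of all genes with enough counts in every lineage, 17.3% were higher in MLL-ENL in all 5 at any size, and 3.49% by at least 1.5-fold. Snhg12 was higher in 4 of 5, whereas Snhg1 and Snhg9 differed by less than 1.5-fold in every lineage at the main setting. Of the 35 pairs of member and lineage, 19 passed 1.5-fold with MLL-ENL the higher library and 0 with Control the higher one, on the scale of log2 of (CPM + 1). Over all gene-lineage pairs with enough counts, 6.57% were called higher and 13.7% called lower. Snhg6 supplied 5 of the 19 pairs, and its MLL-ENL values took part in the choice of the genes. The count of 19 is therefore not independent of that choice. The median gene had a log2 ratio of -0.15 in HSPC-like, -0.25 in granulocyte-monocyte-like, -0.11 in megakaryocyte-like, -0.15 in erythroid-like and -0.16 in basophil-mast-like cells. Of the 7 members, all passed the background's filter on low values except Snhg12 in megakaryocyte-like and basophil-mast-like cells.

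**Figure D1:**
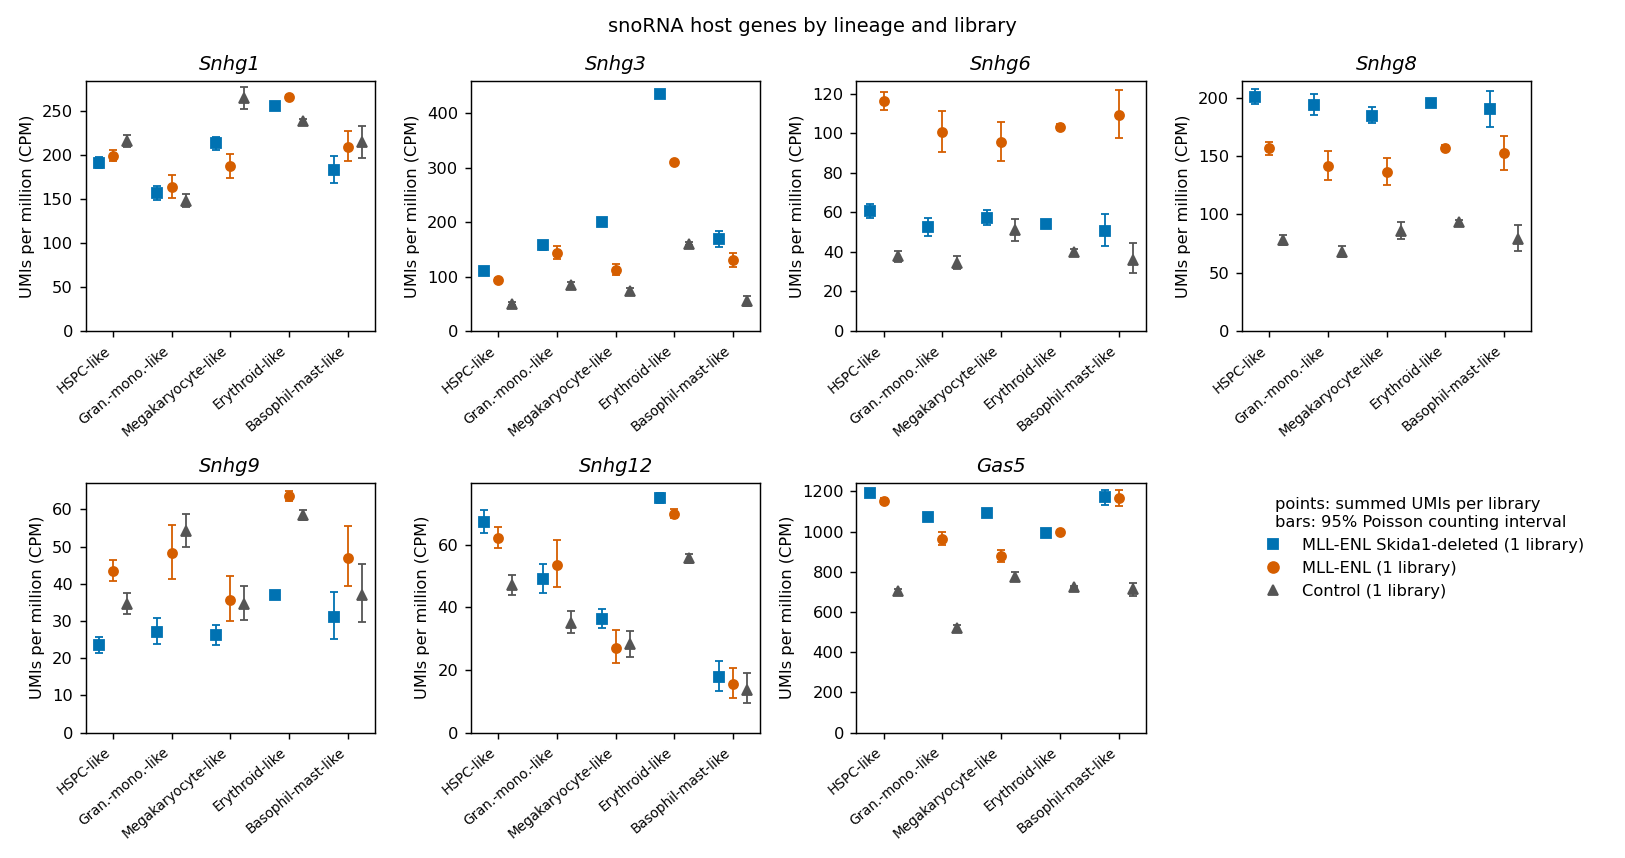
Level of each host gene (vertical axes, CPM of summed UMIs, starting at 0) in 5 lineages of the Skida1-deleted (blue squares), MLL-ENL (orange circles) and Control (grey triangles) libraries, with 95% Poisson intervals for counting error. MLL-ENL stands alone at the top for Snhg6 (95.4 to 116 CPM), while Snhg8 is highest in Skida1-deleted, intermediate in MLL-ENL and lowest in Control in each lineage.

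Snhg6, host of Snord87, had 60.7 CPM in Skida1-deleted, 116 CPM in MLL-ENL and 37.8 CPM in Control HSPC-like cells (1150, 2411 and 690 UMIs). In erythroid-like cells it had 53.9, 103 and 40.2 CPM, and in granulocyte-monocyte-like cells 52.4, 101 and 34.6 CPM, in the same order of libraries. MLL-ENL was highest in each of these lineages, and its counting interval overlapped neither of the others. The remaining lineages gave 57.2, 95.4 and 50.9 CPM in megakaryocyte-like and 50.6, 109 and 36.2 CPM in basophil-mast-like cells. MLL-ENL over Control was 3.08-fold in HSPC-like cells (95% interval 2.83 to 3.36) and 1.87-fold in megakaryocyte-like cells (1.61 to 2.18), its smallest difference, with log2 ratios of 0.89 to 1.60 across lineages.

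Snhg3, host of the paired Snora73 genes, was highest in erythroid-like cells of every library. Erythroid-like cells had 436 CPM in Skida1-deleted, 310.1 CPM in MLL-ENL and 160.4 CPM in Control, against 111, 94.0 and 50.2 CPM in HSPC-like cells of the same libraries. The order of the libraries was thus the same in both lineages. MLL-ENL over Control was 1.93-fold in erythroid-like cells, 1.87-fold in HSPC-like cells (1.73 to 2.02) and 2.40-fold in basophil-mast-like cells (1.97 to 2.93), where the CPM were 168, 130.1 and 54.3. The log2 ratios of the 5 lineages ran from 0.62 in megakaryocyte-like cells to 1.25 in basophil-mast-like cells.

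Snhg8, host of Snora24, was highest in the Skida1-deleted library, intermediate in MLL-ENL and lowest in Control in every lineage. HSPC-like cells had 201 CPM in Skida1-deleted, 157 CPM in MLL-ENL and 78.0 CPM in Control (3800, 3245 and 1425 UMIs). Granulocyte-monocyte-like cells had 194, 142 and 68.0 CPM and erythroid-like cells 195, 157 and 93.6 CPM. The 3 libraries did not overlap within their counting intervals in these lineages. MLL-ENL over Control was 2.01-fold in HSPC-like cells (1.89 to 2.14) and 1.59 to 2.08-fold over the 5 lineages, with log2 ratios of 0.66 to 1.05.

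Gas5, named for growth arrest, had 1191 CPM in Skida1-deleted, 1153 CPM in MLL-ENL and 702 CPM in Control HSPC-like cells. In granulocyte-monocyte-like cells the values were 1073, 964 and 521 CPM, and in erythroid-like cells 992, 998 and 726 CPM. Both MLL-ENL libraries lay above Control, by 1.64-fold for MLL-ENL over Control in HSPC-like cells (1.61 to 1.68). At least 1.5-fold was reached in 3 of 5 lineages, and in megakaryocyte-like cells MLL-ENL over Control was 1.13-fold (877 against 775 CPM).

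Snhg12, Snhg9 and Snhg1 differed less between MLL-ENL and Control. Snhg12 had 67.4 CPM in Skida1-deleted, 62.2 CPM in MLL-ENL and 47.0 CPM in Control HSPC-like cells, and MLL-ENL over Control reached 1.5-fold in granulocyte-monocyte-like cells alone (1.53-fold). Snhg9 had log2 ratios of -0.17 to 0.34 and Snhg1 of -0.50 to 0.16 for MLL-ENL over Control. Snhg1 was the member lowest against Control, with 187 CPM in MLL-ENL against 264 CPM in Control megakaryocyte-like cells. The 11 markers of that class summed to 2305 CPM in its Skida1-deleted, 6096 CPM in its MLL-ENL and 1985 CPM in its Control cells, and the part of this gap in the megakaryocyte-like values was not tested. These values also moved most with the clustering: at Leiden resolution 0.5 the megakaryocyte-like log2 ratio of MLL-ENL over Control was 0.09 for Snhg3, against 0.62, 0.42 for Snhg8, against 0.66, and -0.08 for Gas5, against 0.18. For Snhg8 it was 0.34 after thinning each cell to 3000 UMIs, and for Snhg1 it ran from -0.91 at Leiden resolution 0.5 to 0.26 without doublet removal, against -0.50, and was below 0 in 9 of 10 alternatives and past 1.5-fold lower in 3 of them. Basophil-mast-like Snhg9 was 0.64 when cells were classed by marker score, against 0.34.

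**Figure D2:**
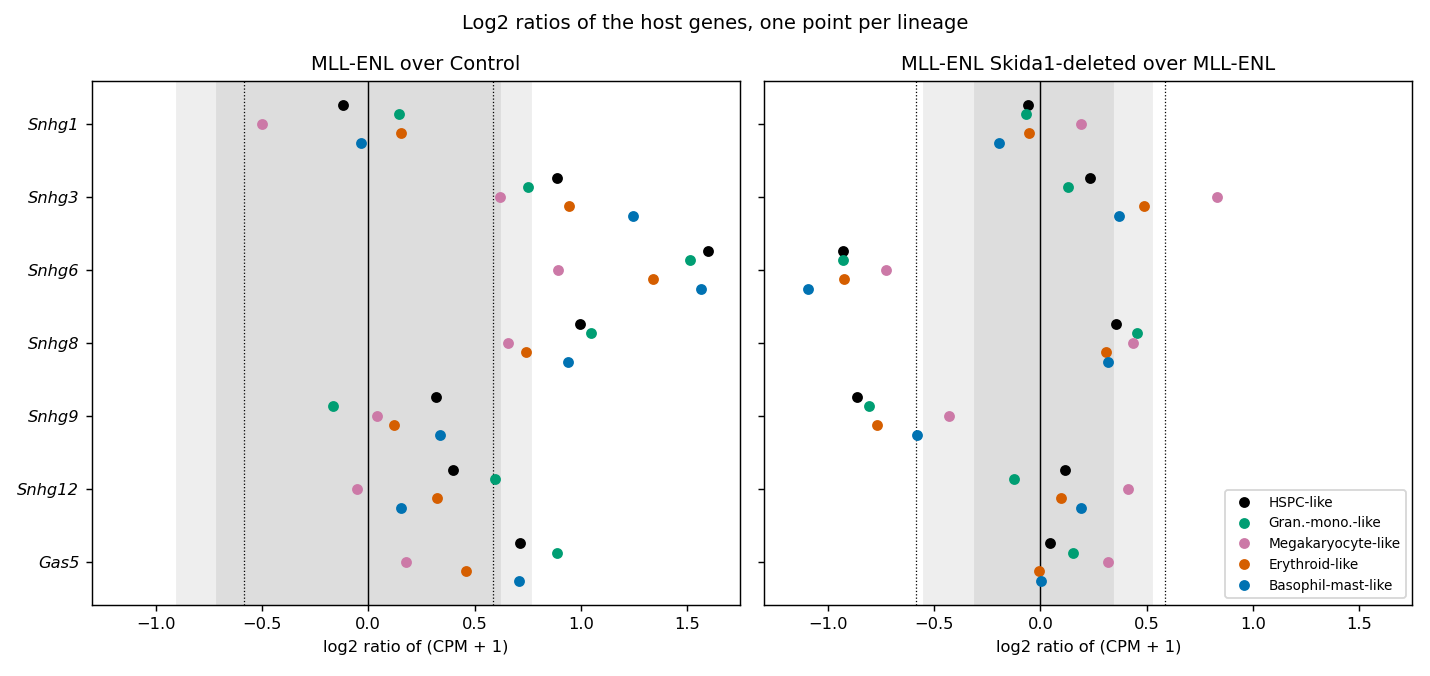
Log2 ratio of (CPM + 1) of each host gene for MLL-ENL over Control (left) and Skida1-deleted over MLL-ENL (right), 1 point per lineage. Dotted lines mark 1.5-fold, and shading spans the 5th to 95th percentiles of all genes with enough counts, dark for the narrowest range and light for the widest. Snhg6 lies right of the shading on the left (0.89 to 1.60) and left of it on the right (-1.09 to -0.73).

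In the Skida1-deleted library, Snhg6 and Snhg9 were lower than in MLL-ENL in all 5 lineages, which is how the genes were chosen. Snhg6 was lower by 1.92 times in HSPC-like cells (1.79 to 2.06), by 1.67 times in megakaryocyte-like cells and by 2.16 times in basophil-mast-like cells. Snhg9 had 23.5 CPM in Skida1-deleted, 43.5 CPM in MLL-ENL and 34.6 CPM in Control HSPC-like cells, and 37.0, 63.6 and 58.5 CPM in erythroid-like cells. The Skida1-deleted library was lowest in both. Its megakaryocyte-like value lay just inside the pattern, at 1.36 times lower than MLL-ENL (1.12 to 1.65). Snhg1 lay just outside, lower in 4 of 5 lineages, with log2 ratios of -0.20 to 0.19. Of all 3288 genes with enough counts in every lineage, 783 or 23.8% were lower in Skida1-deleted than in MLL-ENL in all 5 lineages at any size.

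At least 1.5-fold, 8 of the 35 pairs of member and lineage were lower in Skida1-deleted than in MLL-ENL, of which 5 were Snhg6 and 3 Snhg9, and 1 was higher. The background was 1.95% of gene-lineage pairs lower and 2.52% higher, and since the choice of members used this contrast, nothing is read from the difference. Snhg6 was 1 of 9 genes (0.274% of 3288) that were at least 1.5-fold lower in every lineage. The others were Xist and its antisense RNA Tsix, Rpa3, Sdhd, Mrps28, Gm47283, H2-T23 and Tmem128, and the median log2 ratio of Snhg6 over lineages was -0.93, against -8.44 for Xist and -1.67 for Rpa3.

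The other members did not follow Snhg6 and Snhg9. Snhg8 was higher in Skida1-deleted than in MLL-ENL in all 5 lineages, by 1.24 to 1.37-fold, with each counting interval above 1 and none reaching 1.5-fold. Snhg3 was higher in all 5 as well, by 1.78-fold in megakaryocyte-like cells (1.61 to 1.97) and 1.40-fold in erythroid-like cells, though in granulocyte-monocyte-like cells its interval of 0.990 to 1.21 included 1. Of all genes 19.3% were higher in all 5 lineages of this contrast. For Snhg3 the megakaryocyte-like CPM were 200.2 in Skida1-deleted, 112 in MLL-ENL and 72.7 in Control, and the log2 ratio of Skida1-deleted over MLL-ENL, 0.83, was 0.38 when cells were classed one by one by marker score and 1.46 at Leiden resolution 0.5. Gas5 had log2 ratios of -0.01 to 0.32 and Snhg12 of -0.13 to 0.41 in this contrast. At the main setting 2 members were thus lower in all 5 lineages, those the genes were chosen on, and 2 were higher. Over all genes the shares were 23.8% lower and 19.3% higher, so nothing is read from these counts. When cells were classed by marker score 3 members were lower, Snhg1 being the added one with a megakaryocyte-like log2 ratio of -0.05.

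Set against Control directly, the Skida1-deleted library was at least 1.5-fold higher in 15 of 35 pairs and lower in 2, against a background of 8.99% and 18.6%. Of the higher pairs 2 were Snhg6, and the 2 lower ones were Snhg9. The Skida1-deleted values of both took part in the choice of the genes, so these counts are not independent of it. Snhg3 was 1.85 to 3.10-fold higher and Snhg8 2.08 to 2.86-fold higher, both past 1.5-fold in all 5 lineages, which 5.46% of genes were. Snhg6 was above Control in all 5, as were 20% of genes, with log2 ratios of 0.17 to 0.67 and 2 lineages past 1.5-fold. Its megakaryocyte-like interval of 0.989 to 1.28-fold included 1. Snhg9 was below Control in all 5, with log2 ratios of -0.97 to -0.25, as were 48.8% of genes. The basophil-mast-like interval of Snhg9, 0.626 to 1.13-fold, included 1. The 3 contrasts share libraries pairwise, so their values stand side by side and are no replicates of each other.

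B-lineage-like cells, of which there were 98, 90 and 43, were too few to be compared. Snhg6 had 18, 39 and 6 UMIs there in the Skida1-deleted, MLL-ENL and Control libraries, or 49.5, 77.2 and 22.0 CPM.

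**Figure D3:**
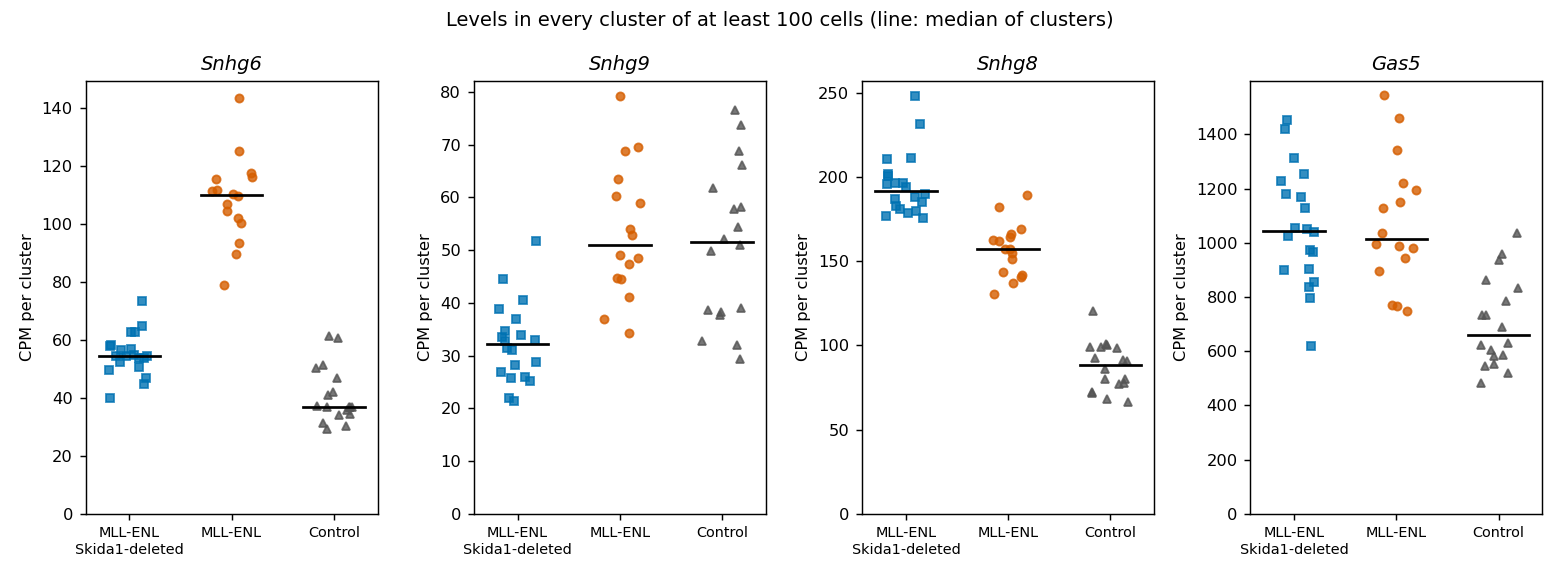
CPM of Snhg6, Snhg9, Snhg8 and Gas5 in every cluster of at least 100 cells of the Skida1-deleted (20 clusters), MLL-ENL (16) and Control (18) libraries, with the median of the clusters as a line. For Snhg6 the lowest MLL-ENL cluster (79.0 CPM) is above the highest Skida1-deleted cluster (73.4 CPM), in the contrast the genes were chosen on. For Snhg8 the highest Control cluster (121 CPM) is below the lowest MLL-ENL cluster (131 CPM). The share of all genes with such gaps was not counted.

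Clusters split the same UMIs further, so their values show the spread within a library and are neither replicates nor further support. Snhg6 spanned 39.8 to 73.4 CPM over Skida1-deleted clusters, 79.0 to 144 CPM over MLL-ENL clusters and 29.4 to 61.2 CPM over Control clusters. Snhg8 spanned 176 to 248, 131 to 189 and 66.5 to 121 CPM in the same order. The MLL-ENL range of Snhg6 overlapped neither other range, of which the Skida1-deleted one belongs to the pattern the genes were chosen on. The Control range of Snhg8 overlapped neither other range. The share of all genes whose cluster ranges leave such gaps was not counted, so nothing is read from them. Snhg9 overlapped, at 21.5 to 51.7, 34.2 to 79.2 and 29.4 to 76.5 CPM, and so did Gas5, at 617 to 1453, 748 to 1544 and 481 to 1038 CPM.

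Shares of cells with a UMI restate the same counts per cell. Every cell was thinned to 3000 UMIs, because median depth of HSPC-like cells was 8339 in Skida1-deleted, 10419 in MLL-ENL and 14821 in Control, and 20, 1 and 5 shallower cells were left out. Snhg6 was then seen in 16.5% of Skida1-deleted, 31.1% of MLL-ENL and 13.9% of Control HSPC-like cells, and unthinned in 41.7, 69.3 and 42.6%. Snhg8 was seen in 44.4, 37.1 and 23.0% after thinning (81.6, 76.8 and 67.9% before). Snhg9 was seen in 6.68, 12.4 and 10.4% after thinning (19.5, 37.7 and 40.9% before). At these depths a thinned share follows the summed level, so it adds no evidence. The intervals of Skida1-deleted and Control overlapped for Snhg6, and those of MLL-ENL and Control for Snhg9. No lineage here is known to lack these genes, so no background share from free RNA is given.

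**Figure D4:**
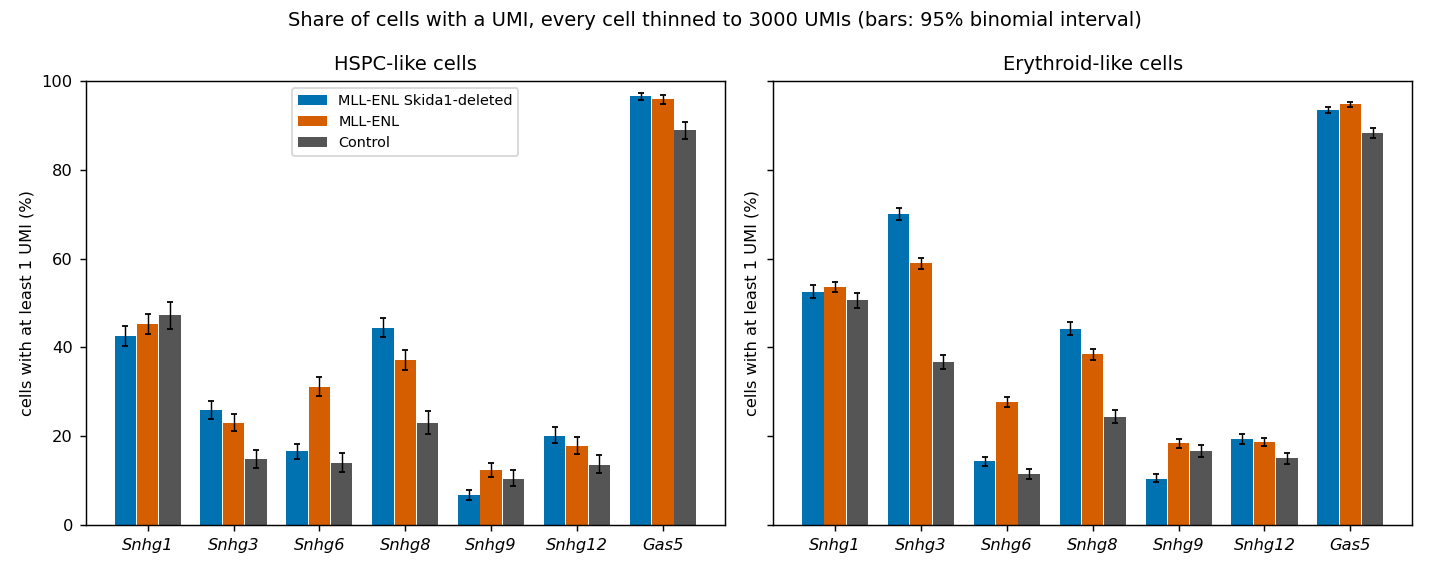
Share of HSPC-like (left) and erythroid-like (right) cells with at least 1 UMI of each host gene after thinning each cell to 3000 UMIs, with 95% Clopper-Pearson intervals, for the Skida1-deleted, MLL-ENL and Control libraries. Snhg3 is seen in 70.1, 58.9 and 36.7% of erythroid-like cells but in 25.9, 23.1 and 14.7% of HSPC-like cells.

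In erythroid-like cells, thinned alike, Snhg3 was seen in 70.1% of Skida1-deleted, 58.9% of MLL-ENL and 36.7% of Control cells (96.3, 88.4 and 96.0% before thinning, at median depths of 26479, 19621 and 35918 UMIs). Thinning left out 269 Skida1-deleted, 766 MLL-ENL and 16 Control cells. Snhg6 was seen in 14.3, 27.7 and 11.4% of these cells. Leaving out the clusters of low depth, the erythroid-like log2 ratio of Snhg6 was 1.33 for MLL-ENL over Control, against 1.34 with them.

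Among lineages of 1 library, Snhg3 and Snhg12 varied most, and in ways that recurred in the 3 libraries. Snhg3 in erythroid-like over HSPC-like cells was 3.94-fold in Skida1-deleted (3.77 to 4.12), 3.30-fold in MLL-ENL (3.15 to 3.46) and 3.19-fold in Control (2.99 to 3.42). In megakaryocyte-like over HSPC-like cells it was 1.81, 1.19 and 1.45-fold, and in granulocyte-monocyte-like over HSPC-like cells 1.42, 1.53 and 1.69-fold. Erythroid-like cells were the highest lineage for Snhg3 in all 3 libraries.

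Snhg12 was lowest in basophil-mast-like cells, at 0.263 of the HSPC-like level in Skida1-deleted (0.197 to 0.343), 0.247 in MLL-ENL and 0.293 in Control, from 56, 45 and 35 UMIs. Its lineages stood in the same order in all 3 libraries: erythroid-like, HSPC-like, granulocyte-monocyte-like, megakaryocyte-like and basophil-mast-like. Highest over lowest lineage was 4.23, 4.54 and 4.04-fold. In MLL-ENL the granulocyte-monocyte-like over HSPC-like ratio, 0.861, had an interval that included 1, so these neighbours did not differ beyond counting error there. In Control the intervals of granulocyte-monocyte-like (35.1 CPM) and megakaryocyte-like cells (28.2 CPM) overlapped, so those neighbours were not told apart.

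**Figure D5:**
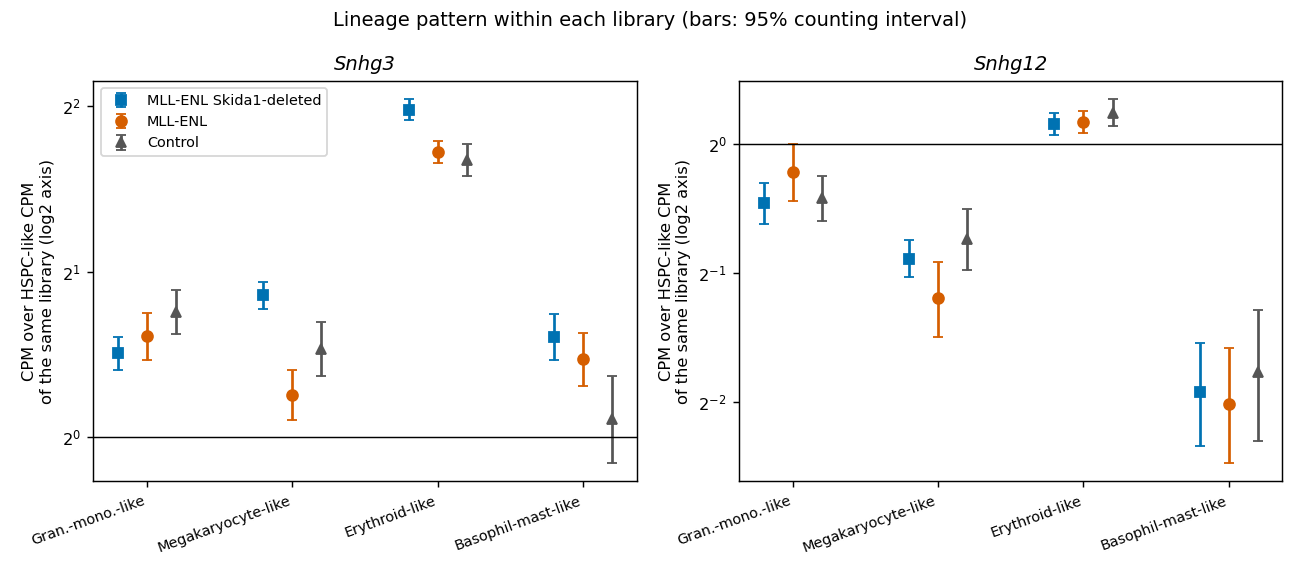
Level of Snhg3 (left) and Snhg12 (right) in 4 lineages over the HSPC-like level of the same library (vertical axis, log2 scale, line at 1), with 95% intervals for counting error, for the Skida1-deleted, MLL-ENL and Control libraries. Erythroid-like Snhg3 stands at 3.19 to 3.94-fold and basophil-mast-like Snhg12 at 0.247 to 0.293.

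The other hosts were flatter over lineages. Snhg8 had a highest over lowest lineage of 1.09 in Skida1-deleted, 1.15 in MLL-ENL and 1.38 in Control, Snhg6 of 1.20, 1.22 and 1.47, and Gas5 of 1.20, 1.33 and 1.49. Snhg1 was lowest in granulocyte-monocyte-like cells of all 3 libraries, with a highest over lowest of 1.64, 1.62 and 1.78. In MLL-ENL cells that lowest interval (151 to 178 CPM) overlapped the megakaryocyte-like one (174 to 201 CPM). Snhg9 was highest in erythroid-like cells of all 3, at 1.58, 1.46 and 1.69 times the HSPC-like level, though in Skida1-deleted and Control cells its interval overlapped that of the next lineage.

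Within HSPC-like cells the level of several hosts differed with the cell-cycle phase called from marker genes. Gas5 had 1426 CPM in G1, 1028 in S and 1003 in G2M cells of Skida1-deleted, 1418, 961 and 940 CPM of MLL-ENL, and 926, 652 and 622 CPM of Control. Snhg12 had 82.5, 59.7 and 53.4 CPM in Skida1-deleted, 75.7, 49.0 and 55.1 CPM in MLL-ENL, and 69.2, 39.8 and 40.7 CPM in Control, by the same phases. Both were highest in G1 in each library. Cells called G1 made up 59.4% of Skida1-deleted, 59.9% of MLL-ENL and 36.3% of Control HSPC-like cells at unequal depths, and the part of these calls in the differences between libraries was not tested. Within G1 cells alone Gas5 had 1418 CPM in MLL-ENL against 926 CPM in Control, and Snhg6 had 66.5 CPM in Skida1-deleted, 123 CPM in MLL-ENL and 42.4 CPM in Control. Snhg3 was highest in S in all 3 libraries (136 CPM in Skida1-deleted, 113 CPM in MLL-ENL and 60.9 CPM in Control). The G1 pattern of Snhg12 did not hold in erythroid-like cells. There it had 59.8 CPM in G1 and 75.0 in S in Skida1-deleted, 60.9 and 69.1 in MLL-ENL, and 54.1 and 55.8 in Control.

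Related genes were counted from lists, in which genes under 5 CPM are left out. The background beside every list holds only genes with at least 30 CPM in either library and 50 UMIs, so the filters are unlike. Of 15 other noncoding snoRNA hosts, 14 were in the matrix. In HSPC-like cells 4 of 11 measured passed 1.5-fold with MLL-ENL above Control and 1 with MLL-ENL below (background 6.61% and 13.3%). Their median log2 ratio was 0.21, beside -0.15 over the background genes. In megakaryocyte-like cells 1 of 10 was higher and 1 lower (median -0.18, background 8.18% higher and 13.7% lower), and in basophil-mast-like cells 5 of 10 were higher (median 0.59, background 6.58%). Zfas1, host of C/D snoRNAs, had 254 CPM in Skida1-deleted, 233 CPM in MLL-ENL and 113 CPM in Control HSPC-like cells, and Epb41l4aos had 101, 78.1 and 34.5 CPM. Both stood in the order of Snhg8 there, and in megakaryocyte-like cells Zfas1 had a log2 ratio of -0.12 for MLL-ENL over Control. In HSPC-like cells the highest ratio of the list was that of Rian, an imprinted host, at 1.23. It came from 5.07 CPM in MLL-ENL and 1.59 CPM in Control, both under the 30 CPM of the background. Snhg4 ran the other way, at 66.0 CPM in Skida1-deleted, 98.3 CPM in MLL-ENL and 153 CPM in Control. For Skida1-deleted over MLL-ENL, 0 of 11 of these hosts passed 1.5-fold in either direction in HSPC-like cells (background 2.16% higher and 0.915% lower).

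Many cytosolic ribosomal protein genes were higher in MLL-ENL than in Control, as Snhg3, Snhg6, Snhg8 and Gas5 were. Of 82 measured in HSPC-like cells, 35 passed 1.5-fold with MLL-ENL above Control and 4 with it below, against 6.61% and 13.3% of all genes, with a median log2 ratio of 0.50. The median was 0.62 in granulocyte-monocyte-like, 0.37 in megakaryocyte-like, 0.48 in erythroid-like and 0.48 in basophil-mast-like cells. For Skida1-deleted over MLL-ENL the HSPC-like median was -0.08, with 9 of 82 higher and 0 lower at 1.5-fold (background 2.16% and 0.915%). Among the 9 were Rps29 (log2 ratio 0.93), Rpl38 (0.91) and Rps28 (0.88).

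The other TOP genes differed from the ribosomal proteins in sign: their median log2 ratio for MLL-ENL over Control was -0.28 in HSPC-like cells. The background median there was -0.15, with 6.61% of genes at least 1.5-fold higher and 13.3% lower. Of the 15 genes on this list 1, Fau, was past 1.5-fold higher (log2 ratio 0.67). Fau itself encodes a ribosomal protein, which the choice of ribosomal proteins by symbol left out. Beside that background, counts of 1 or 2 genes per list are not read as a result. Protein-coding snoRNA hosts had 0 of 15 higher and 2 lower (median -0.06), the snoRNP core proteins 1 of 8 higher and 1 lower (median -0.28), and the assembly factors 0 of 11 higher and 1 lower (median -0.41). The core protein that was higher, Nop10 of the H/ACA particle, had a log2 ratio of 0.98, whereas Nop56 of the C/D particle had -0.66. The lower assembly factor, Shq1, which chaperones the H/ACA enzyme dyskerin, had -1.02. Factors of nonsense-mediated decay, which degrades many hosts, had 0 of 15 higher, 1 lower (Eif4a3, -0.62) and a median of -0.02. Genes of the integrated stress response had 0 of 7 higher and 3 lower, Phgdh (-0.81), Atf5 (-0.79) and Asns (-0.62), with a median of -0.13. Atf5 (3.38 CPM in MLL-ENL and 6.57 in Control) and Asns (10.5 and 16.7 CPM) lay under the 30 CPM of the background. In the other lineages Asns was above 0 in megakaryocyte-like cells alone (0.95) and Atf5 in basophil-mast-like cells alone (0.40).

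For Skida1-deleted over MLL-ENL the HSPC-like medians were -0.02 for protein-coding hosts, -0.05 for core proteins, -0.03 for assembly factors, -0.21 for other TOP genes and 0.06 for decay factors. In HSPC-like cells 1 gene of these lists passed 1.5-fold, the assembly factor Rpap3 (log2 ratio 0.63, background 2.16% higher and 0.915% lower). Wdr43, a protein-coding host and ribosome assembly factor, was higher in all 5 lineages, as were 19.3% of genes, with log2 ratios of 0.58 to 1.04. Magohb, a component of the exon junction complex that marks RNAs for decay, had -0.51 in HSPC-like and -0.72 in granulocyte-monocyte-like cells.

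Neighbouring genes were read at the same sums. Phactr4, beside Snhg3, was also higher in MLL-ENL than in Control (log2 ratios of 0.02 to 0.99) and in Skida1-deleted than in MLL-ENL (0.29 to 0.84), whereas Rcc1 on the other side was lower in MLL-ENL than in Control (-0.98 to -0.36). Sgk3 beside Snhg6 had -0.41 to -0.10 for MLL-ENL over Control, where Snhg6 was higher. Ndufb10 beside Snhg9 had -0.32 to -0.14 for Skida1-deleted over MLL-ENL. Wdr74 and Slc3a2 beside Snhg1 and Cenpl beside Gas5 were lower in MLL-ENL than in Control in all 5 lineages, and Trnau1ap beside Snhg12 in 4 of 5. Of all genes with enough counts, 44.4% were lower and 17.3% higher in MLL-ENL than in Control in all 5 lineages. For Skida1-deleted over MLL-ENL these shares were 23.8% and 19.3%.

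The genes whose level was most like each host's were ranked by Pearson's r of log2(CPM + 1) over the 15 sums of library and lineage among 5900 genes. The sums share 3 libraries and their depths, so r is a description with no p. Snhg8 was most like Epb41l4aos (r of 0.988), Rpl36 (0.983) and Rpl35 (0.982). Gas5 was most like Zfas1 (0.954), Pkn2 (0.938) and Rpl23 (0.929). Snhg3 was most like Atpif1 (0.976), an inhibitor of the mitochondrial ATP synthase that lies on the same chromosome (chr4:132530555-132535450), then M6pr (0.961) and Cox17 (0.947). Other hosts or ribosomal proteins led for Snhg8 and Gas5, and for Snhg3 they did not.

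Snhg6 was most like Ost4 (0.896), and Zcrb1 (0.865) was also among the nearest. Snhg9 was most like Magohb (0.899), the X-linked translation factor gene Eif2s3x (0.886) and Mrps28 (0.881). The libraries differed in sex-linked RNA as given above, and its part in these values was not tested. Snhg12 was most like Pdk1 (0.962), Gnpat (0.909) and Lsm3 (0.878), and Snhg1 was most like Lpin2 (0.907), Sirt2 (0.884) and Selenbp1 (0.883). Among the 21 pairs of members, r ran from -0.41 to 0.93 with a median of 0.18, and Snhg8 with Gas5 was the highest. These r pool libraries and lineages. For Snhg8 with Gas5, r was 0.74 over lineages within libraries and 0.96 over libraries within lineages. Snhg3 with Snhg9 had 0.13 pooled, 0.85 over lineages within libraries and -0.48 over libraries within lineages.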

How the data were processed

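Cells were Lin-Kit+ cells of mouse liver, prepared with the 10x Genomics 3' kit with feature barcodes, per the labels' protocols. The deposited values are raw UMI counts per gene and cell. Counting was by Cell Ranger 6.1.2 per the file headers and 6.0.1 on mm10 per the submitters' processing notes; whether strand was used is not stated. The 10 antibody tags were not used.

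Kept cells had at least 1000 UMIs, 500 genes and under 10% mitochondrial UMIs. Doublet scores came from Scrublet in scanpy 1.11.5; its own threshold called 6.20, 3.06 and 6.63% in Skida1-deleted, MLL-ENL and Control, so the highest-scoring 794, 994 and 267 cells were removed, at an expected 0.8% per 1000 cells. Each library was clustered alone (2000 variable genes without the members, 30 components, 15 neighbours, Leiden resolution 1.0, leidenalg 0.10.2). The class with the largest number of markers in a cluster's top 50 genes by fold named it, given 3 or more. It stayed unnamed where another class led the top 10, or where no marker stood there and its median depth times 3 was below the library's. This replaced a joint clustering whose classes followed the libraries, after its output was seen; granulocyte, monocyte and neutrophil classes were pooled then too.

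UMIs were summed per library and lineage and scaled to CPM. Ratios are log2 of (CPM + 1), pairs needed 20 UMIs, list genes 5 CPM, and background genes 30 CPM in either library and 50 UMIs. Intervals are 95% exact Poisson (levels), exact conditional binomial (folds) and Clopper-Pearson (shares), from scipy 1.17.1, and cover counting error only. No model was fitted, since each group is 1 library. Ratio and call steps were tested on simulated data. Likeness was ranked as named in the text, neighbours are the nearest annotated genes, and of each list up to 3 genes with the largest absolute HSPC-like ratio in a contrast could be named. A likeness value and an overlap are not reported here. Promoter windows and coordinates are from RefSeq on GRCm38.p6. The members and lists were chosen with earlier results of these data known. In all, 12 alternative settings were tried, 2 of them added after the data were seen, and the marker-score setting was limited to blood classes after its first output.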

Additional observations from a re-analysis of the deposited data

Results flagged for a closer look

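Snhg1 stood out because its ratio pointed in opposite directions in different lineages, with counting intervals on either side of 1. For MLL-ENL over Control its log2 ratio was 0.16 in erythroid-like cells and -0.50 in megakaryocyte-like cells. For Skida1-deleted over MLL-ENL it was 0.19 in megakaryocyte-like cells and -0.20 in basophil-mast-like cells. With 1 library per group the difference between lineages was not tested. Over 10 alternatives the megakaryocyte-like value for MLL-ENL over Control ran from -0.91 to 0.26, above 0 without doublet removal alone.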

How the results depend on the processing

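No paired analysis was possible because each group is 1 library. Of 755 log2 ratios recomputed under 12 alternatives, 601 moved by less than counting error and 154 by more. The alternative without a minimum of UMIs gave 70 of the 601 and 0 of the 154. No pair was under the 20 UMIs that pairs needed, the smallest having 80. The 19 pairs at least 1.5-fold higher in MLL-ENL than in Control became 12 of 21 under the stricter filter on cells, which left 3 lineages with enough cells, and 4 of 7 in cells called G1, which left HSPC-like cells; other settings gave 16 to 20. The 0 pairs lower became 1, megakaryocyte-like Snhg1, at Leiden resolution 0.5, after thinning and with the mean over cells. The 1 pair higher in Skida1-deleted than in MLL-ENL became 0 under the stricter filter, with classes from a marker score and in G1 cells, 2 and 3 at Leiden resolutions 2.0 and 0.5, and 4 after thinning. The 8 pairs lower became 2 of 7 in G1 cells, and the 2 members lower in every lineage became 3 under the stricter filter, with the marker score and in G1 cells. Other causes were not tested. Over the alternatives, log2 ratios for MLL-ENL over Control ran from 0.69 to 1.77 for Snhg6, 0.34 to 1.30 for Snhg8 and 0.09 to 1.60 for Snhg3, whose lowest value was megakaryocyte-like at Leiden resolution 0.5. For Skida1-deleted over MLL-ENL they ran from -1.33 to -0.65 for Snhg6, -1.07 to -0.21 for Snhg9 and 0.27 to 0.67 for Snhg8.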
